A study of Mus musculus with 12 samples.

Results

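CD40 and the proteins that carry its signal into the B cell are described here through the transcripts of 10 genes of the 24063 genes in the deposited table. They are the receptor gene Cd40, the TRAF adaptor genes Traf1, Traf2, Traf3, Traf5 and Traf6, the ubiquitin ligase genes Birc2 and Birc3, the kinase gene Map3k14 and the adaptor gene Tank. The genes were taken by symbol, from a list chosen with earlier results of these data known. For each the transcript with the highest mean over all 12 libraries was used. Poly-A RNA of mouse spleen B cells was sequenced in 4 groups of 3 libraries, described as biological replicates. B-KO mice are C57BL/6 mice in which a floxed miR-146a allele (miR-146a fl/fl) is removed by CD21-cre, a Cre active in mature B cells. WT mice were their littermates. B-KO GC and WT GC libraries were made from B220+PNA+GL7+ germinal center (GC) B cells, taken on day 14 from mice given sheep red blood cells (SRBC). B-KO naive and WT naive libraries were made from B220+ cells of unimmunized mice, with no further marker in the sort. The mice were 8 to 10 weeks old unless stated otherwise. GC and naive groups therefore differ in immunization as well as in the sort, and the effects of both cannot be told apart.

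CD40 is a receptor of the tumor necrosis factor receptor family on B cells, and T cells that carry its ligand engage it during the GC reaction. It has no enzyme activity of its own and recruits TRAF proteins to its tail. In resting cells TRAF3 bridges NIK, the kinase encoded by Map3k14, to a TRAF2-cIAP complex that marks NIK for degradation. Engagement of CD40 removes TRAF3 and lets NIK build up, which starts the noncanonical NFκB pathway, while TRAF2 and TRAF6 feed the canonical NFκB and MAP kinase pathways. The cIAP proteins are encoded by Birc2 (cIAP1) and Birc3 (cIAP2). TRAF1 has no RING finger and acts together with TRAF2, and TANK binds TRAF proteins and the kinase TBK1. miR-146a represses mRNAs that carry matches to its seed, and Traf6 is among its classic targets.

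The microRNA deleted in B-KO B cells and its paralog are shown with the seed, bases 2 to 8, in capitals (RefSeq, GRCm38.p6). Both carry the same seed, so a match in an mRNA cannot be assigned to either of them.
miR-146a-5p: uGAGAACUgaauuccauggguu
miR-146b-5p: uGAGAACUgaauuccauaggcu
The first is encoded on chr11:43374435-43374456 on the minus strand and the second on chr19:46342790-46342811 on the plus strand. For each gene, the longest 3′ UTR in GENCODE vM21, an annotation of the mm10 assembly, was searched on the sense strand. A 6mer match is GTTCTC, a 7mer match is AGTTCTC or GTTCTCA, and an 8mer match joins both. Traf6 was the only member with a match longer than 6 bases. Its 3′ UTR of 4170 bases held 4 8mers, shown as the last 30 bases up to the end of each match, with the match in capitals.
Traf6 site at chr2:101697937-101697966: agaagttaccgctctggtgttgAGTTCTCA
Traf6 site at chr2:101698001-101698030: accatgatccctggaaggcttaAGTTCTCA
Traf6 site at chr2:101698813-101698842: catatacagtactttggagtctAGTTCTCA
Traf6 site at chr2:101701337-101701366: tctcccgggactttgctactgcAGTTCTCA
All lie on the plus strand of mm10, and the last is past the end of the RefSeq transcript on which reads were counted. Of the 11791 tested genes with an annotated 3′ UTR, 518 (4.39%) held an 8mer, 2333 (19.79%) a 7mer or 8mer and 3793 (32.17%) any match. No other of them had as many as the 4 8mers of Traf6. Cd40 held 2 6mers, shown because Cd40 heads the pathway.
Cd40 site at chr2:165071778-165071807: cctattggccagccccaggtccatGTTCTC
Cd40 site at chr2:165071843-165071872: tccattcacctcttctctctcttgGTTCTC
Both lie past the end of the counted Cd40 transcripts, as does a single 6mer of Traf1. The other 7 members held no match in these 3′ UTRs. A match is a run of letters and no evidence of binding.

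The 12 libraries held 22945634 to 39118224 assigned counts summed over all transcripts, where a read counts once for every transcript it overlaps. These totals are therefore above the number of different reads. Each member had 601 to 7344 reads in every library, so that counting error alone was 1.17% to 4.08% of a value. Values are reads per kilobase of transcript, scaled by the authors to 10000000 of these counts per library (RPKM), which allows levels of different genes to be compared. Reads on the precursor of miR-146a (Mir146) were 0, 0 and 1 in B-KO GC, 0, 4 and 0 in WT GC, 0, 0 and 0 in B-KO naive and 2, 0 and 0 in WT naive libraries. A hairpin cut out of its precursor carries no poly-A tail, so these reads do not check the deletion. The B cell markers Cd79a, Cd79b, Ms4a1, Pax5 and Ptprc were at 889 RPKM or more in every library. The summed RPKM of 8 GC markers was 7085 to 10369 in B-KO GC, 8447 to 10562 in WT GC, 463 to 1522 in B-KO naive and 292 to 524 in WT naive libraries. Markers of other cells moved with the groups as well. The summed RPKM of 7 myeloid markers was 160 to 597 in B-KO GC, 252 to 674 in WT GC, 79.3 to 379 in B-KO naive and 46.4 to 93.1 in WT naive libraries, and that of 6 erythroid and platelet markers 90.5 to 142 in B-KO GC, 21.9 to 195 in WT GC, 442 to 773 in B-KO naive and 255 to 297 in WT naive libraries. Summed RPKM of 4 NK cell markers was 5.22 to 43.2 in B-KO GC, 15.5 to 59.4 in WT GC, 82.2 to 224 in B-KO naive and 112 to 342 in WT naive libraries. That of 5 dendritic cell markers was 89.4 to 118 in B-KO GC, 78.5 to 104 in WT GC, 106 to 177 in B-KO naive and 90.6 to 174 in WT naive libraries. Markers within a sum did not all move alike. The dendritic marker Flt3 was at 54.8 to 102 RPKM in GC and 11.1 to 37.2 RPKM in naive libraries. Siglech was at 2.01 to 4.96 RPKM in GC and 53.2 to 134 RPKM in naive libraries. The myeloid marker Itgam was at 5.24 to 28.2 RPKM in GC and 10.6 to 36.2 RPKM in naive libraries. The part of such other cells in the members' values was not tested. Within the groups 4 libraries stood apart. B-KO naive replicates 1 and 2 had the highest GC marker sums among naive libraries (1522 and 794). Not all of the 8 GC markers were raised in both. Bcl6 was at 242 and 209 RPKM there, against 195 to 274 RPKM in the other naive libraries. Rgs13 was at 157 and 73.5 RPKM, against 24.2 to 84.3 RPKM. B-KO GC replicate 2 and WT GC replicate 3 had the highest sums of 5 naive markers among GC libraries (3250 and 2749, against 1751 to 2231 in the other 4). Their Ccr7 was at 615 and 301 RPKM, against 53.9 to 73.6 in the other GC libraries. Not all of the 5 naive markers were raised in them. Cr2 was at 429 and 604 RPKM there, against 486 to 963 RPKM in the other GC libraries. The same 2 GC libraries also had the highest sums of 4 plasma cell markers among GC libraries (1412 and 1230, against 671 to 757 in the other 4). Irf4 was at 579 and 550 RPKM in them, above every naive library (326 to 414), and Xbp1 and Prdm1 were also highest in them among GC libraries. Sdc1 was not, at 23.0 and 21.6 RPKM, against 6.36 to 24.1 RPKM in the other GC libraries. Member values that these 4 libraries moved most are also given without them.

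In GC against naive B cells of either genotype, Traf1 was higher and Cd40, Traf3 and Birc3 were lower (the plots of RPKM by library and of log2 fold changes of GC over naive B cells). These were the members called in B-KO and in WT alike, and each kept its call and direction in all 25 alternative analyses of both comparisons. Differences were tested with limma on log2(RPKM + 1) over the 13704 genes that reached an RPKM of 1 in 3 or more libraries, and a gene was called at an adjusted p under 0.05 (Benjamini-Hochberg over all genes tested). All 10 members were tested. In B-KO B cells 1 member was called higher, against 30.0% of all genes tested, and 4 lower, against 27.5%. In WT B cells 1 was called higher, against 31.7% of all genes, and 5 lower, against 30.2%. GC and naive libraries did not overlap for 6 members in B-KO (64.1% of all genes) and 6 in WT (67.3%). The median log2 fold change of the members was -0.14 in B-KO and -0.21 in WT, and that of all genes 0.02 in B-KO and 0.01 in WT. These are bulk values of sorted cells, in which fewer cells with a transcript and less of it per cell cannot be told apart.

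**Figure D1:**
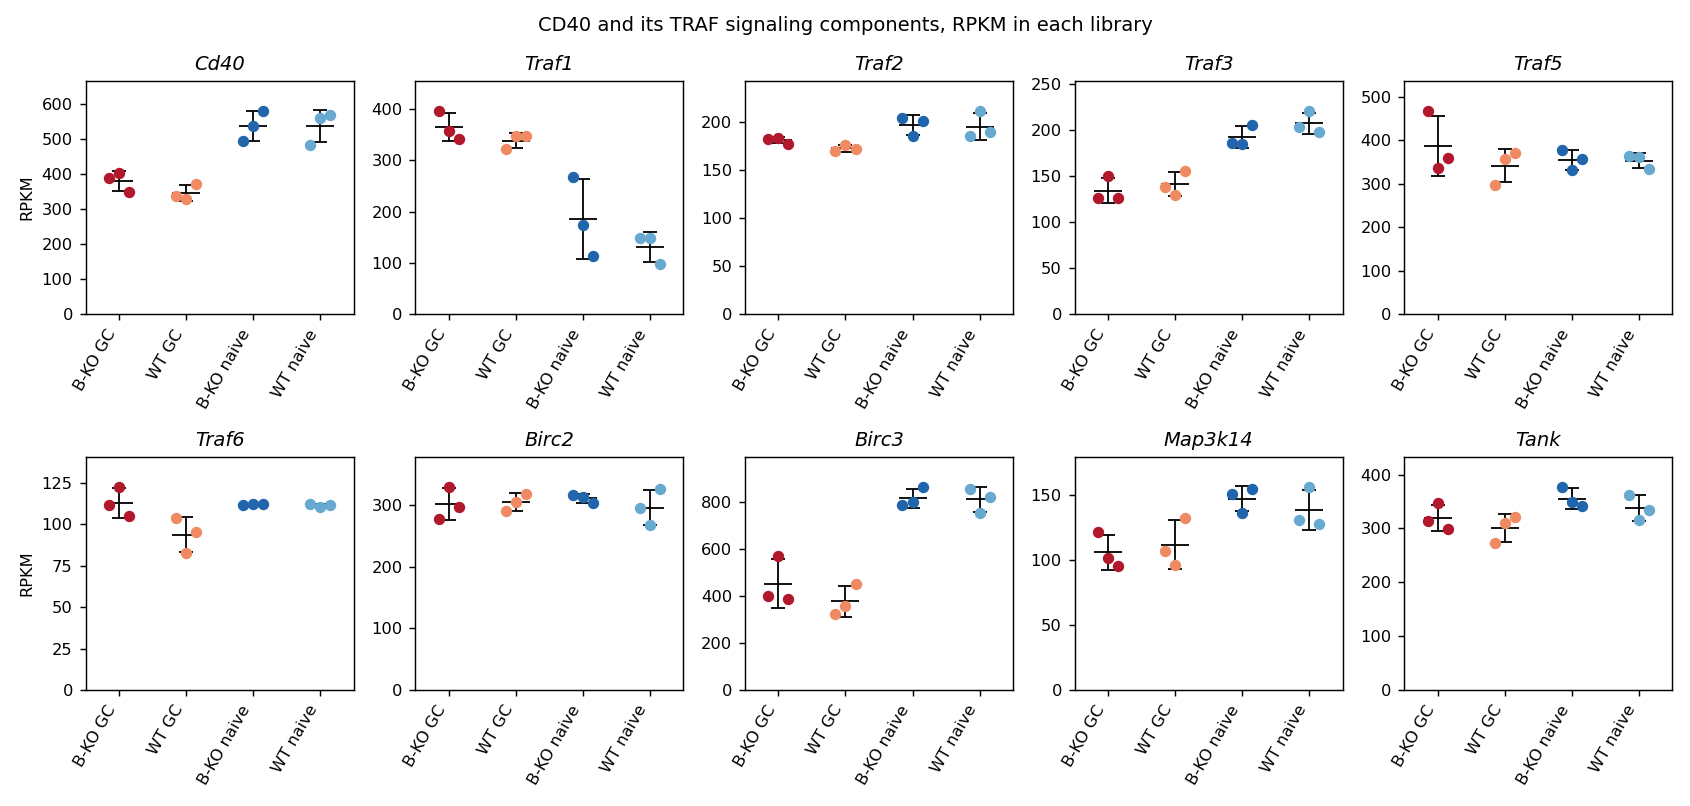
RPKM (y axes, from 0, each gene on its own scale) of the 10 genes in 3 libraries each of B-KO GC, WT GC, B-KO naive and WT naive B cells. Points are libraries, horizontal lines the group means and bars the SD. Birc3 and Cd40 sit lower and Traf1 higher in GC than in naive libraries, and the 6 naive libraries of Traf6 lie between 110 and 112.

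The receptor gene Cd40 (chromosome 2, 165055636 to 165071654, plus strand, mm10) was lower in GC B cells. It was at 389, 404 and 349 RPKM in B-KO GC, against 494, 537 and 579 RPKM in B-KO naive libraries. In WT mice it was at 337, 329 and 373 RPKM in GC, against 483, 561 and 567 RPKM in naive libraries. Every GC library lay below every naive library. The log2 fold change of GC over naive was -0.49 (95% interval -0.69 to -0.30, limma adjusted p = 0.0007684) in B-KO and -0.63 (-0.83 to -0.43, adjusted p = 0.0001169) in WT. Cd40 is listed with 5 transcripts that end at the same base and share most exons. Their mean levels were 95.58% to 99.67% of the one used, so they were not told apart.

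Traf1 (chromosome 2, 34943258 to 34961772, minus strand) encodes the TRAF protein that NFκB itself induces. It was at 395, 358 and 341 RPKM in B-KO GC, against 268, 173 and 113 RPKM in B-KO naive libraries. WT GC libraries had 321, 347 and 346 RPKM, against 148, 148 and 98.1 RPKM in WT naive libraries. The 6 GC libraries were within 321 to 395, and the B-KO naive libraries were spread more widely than the WT naive libraries. The log2 fold change was 1.06 (0.50 to 1.62, limma adjusted p = 0.004304) in B-KO and 1.38 (0.82 to 1.94, adjusted p = 0.000702) in WT. Without B-KO naive replicates 1 and 2, the naive libraries with the highest GC marker sums, the value in B-KO was 1.67 (adjusted p = 0.0005772, with the 1 library left assumed to vary like the other groups).

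Birc3 (chromosome 9, 7848701 to 7873170, minus strand), the cIAP2 gene, had the lowest log2 fold change of the 10 members in both genotypes. It was at 398, 571 and 387 RPKM in B-KO GC, against 785, 798 and 862 RPKM in B-KO naive libraries. WT GC libraries had 322, 357 and 450 RPKM, against 855, 754 and 820 RPKM in WT naive libraries. The highest GC library in each genotype, B-KO GC replicate 2 and WT GC replicate 3, still lay below every naive library. The log2 fold change was -0.87 (-1.20 to -0.54, limma adjusted p = 0.0005861) in B-KO and -1.12 (-1.45 to -0.78, adjusted p = 8.638e-05) in WT. Without those 2 GC libraries it was -1.05 in B-KO and -1.25 in WT.

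Birc2 (chromosome 9, 7818226 to 7835255, minus strand), the neighboring cIAP1 gene, was not called in either genotype. It was at 278, 329 and 296 RPKM in B-KO GC, against 317, 313 and 302 RPKM in B-KO naive libraries. In WT mice it was at 289, 305 and 318 RPKM in GC, against 294, 268 and 325 RPKM in naive libraries. The ranges overlapped, and the log2 fold change was -0.05 (-0.23 to 0.13, limma adjusted p = 0.6256) in B-KO and 0.04 (-0.14 to 0.23, adjusted p = 0.6557) in WT. Only quantile normalization called it, in B-KO (-0.20, adjusted p = 0.0447). The ratio of Birc3 to Birc2 RPKM was 1.31 to 1.74 in B-KO GC, against 2.48 to 2.85 in B-KO naive libraries. It was 1.11 to 1.41 in WT GC, against 2.52 to 2.91 in WT naive libraries. This ratio did not overlap between GC and naive libraries in either genotype.

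The 2 libraries with high Birc3 among GC libraries were the same that had the highest naive and plasma cell marker sums (the plot of Birc3 and Traf1 beside marker sums). Not every marker in these sums was raised in them. Birc3 was at 571 and 450 RPKM in B-KO GC replicate 2 and WT GC replicate 3, and at 322 to 398 RPKM in the other 4 GC libraries. Among naive libraries, B-KO naive replicates 1 and 2 had the highest Traf1 (268 and 173 RPKM) and the highest sums of GC markers (1522 and 794 RPKM). That sum was 463 RPKM in B-KO naive replicate 3 and 292, 521 and 524 RPKM in WT naive libraries. Bcl6, a marker in that sum, was not raised in B-KO naive replicates 1 and 2. The part of other cell states in these Birc3 and Traf1 values was not tested.

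**Figure D2:**
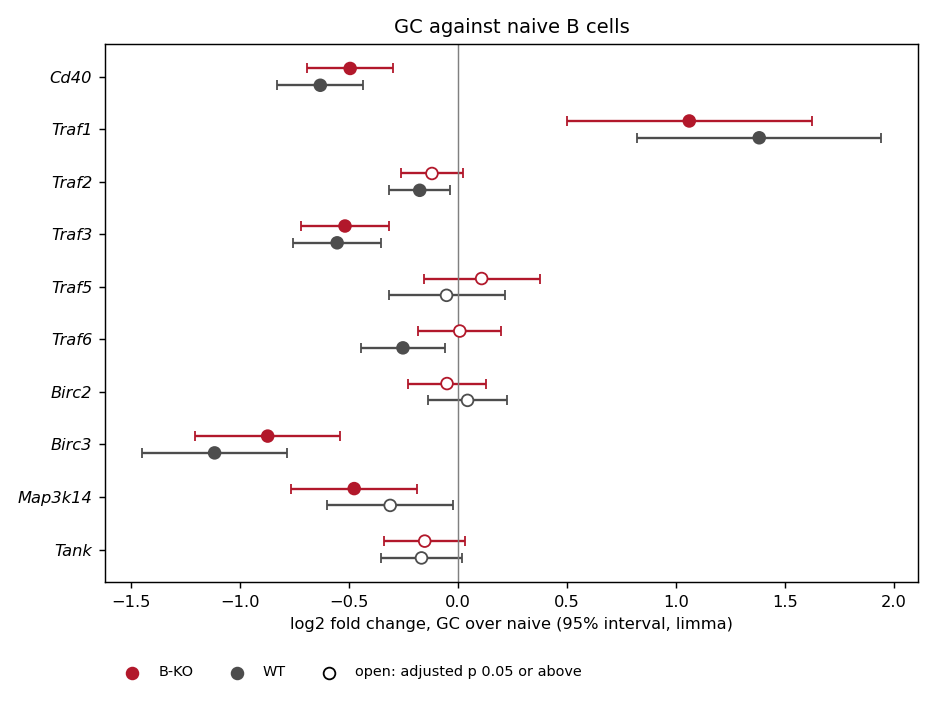
Log2 fold change of GC over naive B cells (x axis) for the 10 genes, in B-KO (red) and WT (grey) mice, with 95% intervals from limma. Filled points have an adjusted p under 0.05 and open points do not. Traf1 lies at 1.06 and 1.38, and Birc3 at -0.87 and -1.12.

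**Figure D3:**
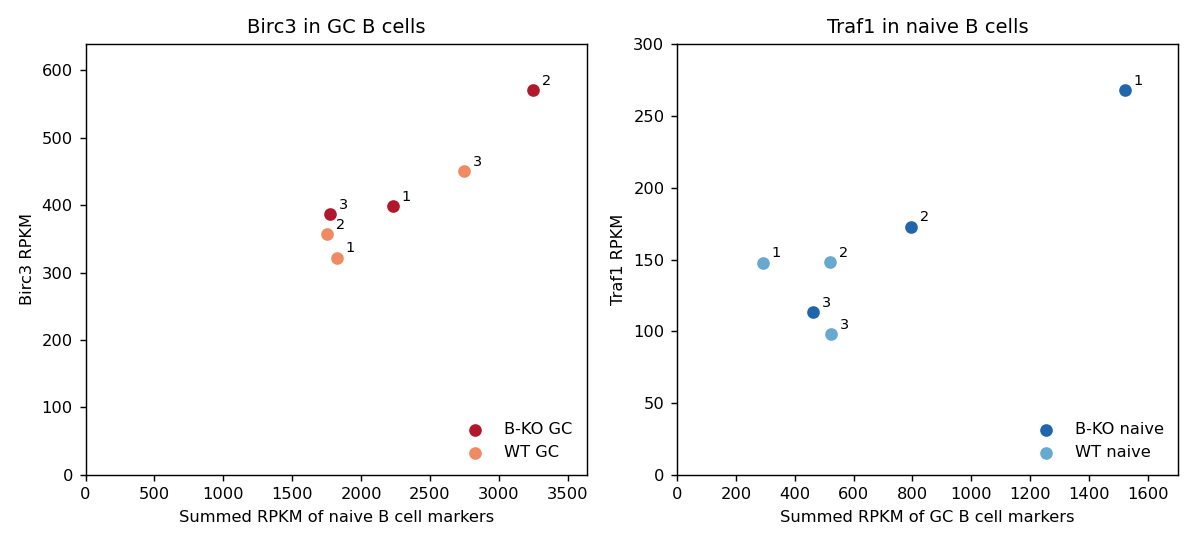
Left, Birc3 RPKM against the summed RPKM of 5 naive B cell markers in the 3 B-KO GC and 3 WT GC libraries. Right, Traf1 RPKM against the summed RPKM of 8 GC B cell markers in the 3 B-KO naive and 3 WT naive libraries. Numbers beside the points are replicate numbers, and the library with the highest marker sum is also the highest for the gene in both plots.

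Traf3 (chromosome 12, 111166370 to 111267155, plus strand), the adaptor that holds NIK in its degrading complex, was lower in GC B cells. It was at 127, 151 and 127 RPKM in B-KO GC, against 187, 185 and 206 RPKM in B-KO naive libraries. In WT mice it was at 139, 130 and 156 RPKM in GC, against 204, 221 and 199 RPKM in naive libraries. GC and naive libraries did not overlap in either genotype. On the log2 scale the difference was -0.52 (-0.72 to -0.32, limma adjusted p = 0.0006752) in B-KO and -0.55 (-0.76 to -0.35, adjusted p = 0.0003499) in WT.

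Map3k14 (chromosome 11, 103219764 to 103267401, minus strand), the NIK gene, was lower in GC B cells of B-KO mice. It was at 121, 101 and 95.5 RPKM in B-KO GC, against 151, 136 and 155 RPKM in B-KO naive libraries. WT GC libraries had 107, 96.3 and 133 RPKM, against 131, 156 and 128 RPKM in WT naive libraries. WT GC replicate 3 lay above 2 of the WT naive libraries. As a log2 fold change this was -0.48 (-0.76 to -0.19, limma adjusted p = 0.009219) in B-KO and -0.31 (-0.60 to -0.02, adjusted p = 0.05873) in WT, where it was not called. The difference between the genotypes was -0.17 (-0.57 to 0.24, adjusted p = 0.9999), and -0.04 without WT GC replicate 3. Of the 25 alternatives, 6 called Map3k14 in WT, with adjusted p of 0.006408 to 0.04727. Without WT GC replicate 3, for example, the WT value was -0.44 (adjusted p = 0.01013), and without B-KO naive replicates 1 and 2 the B-KO value was -0.55 (adjusted p = 0.05442).

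Traf2 (chromosome 2, 25517982 to 25546940, minus strand), the adaptor that brings the cIAP proteins to CD40, differed little between cell types. It was at 182, 183 and 177 RPKM in B-KO GC, against 205, 185 and 201 RPKM in B-KO naive libraries. In WT mice it was at 169, 177 and 172 RPKM in GC, against 186, 211 and 189 RPKM in WT naive libraries. GC libraries lay below naive libraries in both genotypes, although the highest B-KO GC library (183) was close to the lowest B-KO naive library (185). The fitted log2 fold change was -0.12 (-0.26 to 0.02, limma adjusted p = 0.1343) in B-KO and -0.17 (-0.32 to -0.03, adjusted p = 0.03378) in WT. The call in WT was lost without WT GC replicate 1, 2 or 3 (adjusted p = 0.09384, 0.05056 and 0.06358) and without WT naive replicate 2 (adjusted p = 0.1357), without both B-KO GC replicate 2 and WT GC replicate 3 (0.06656), with the replicate block (0.06098) and in a fit of only the 2 groups compared (0.07527). Under quantile normalization Traf2 was also called in B-KO (-0.23, adjusted p = 0.01314).

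Traf5 (chromosome 1, 191997203 to 192092599, minus strand), a close relative of Traf3, was not called. It was at 467, 336 and 359 RPKM in B-KO GC, against 378, 332 and 357 RPKM in B-KO naive libraries. In WT mice it was at 298, 357 and 372 RPKM in GC, against 365, 361 and 334 RPKM in WT naive libraries. The ranges overlapped in both genotypes, and B-KO GC replicate 1 was the highest of all 12 libraries. GC over naive, the log2 fold change was 0.11 (-0.16 to 0.38, limma adjusted p = 0.4571) in B-KO and -0.05 (-0.32 to 0.21, adjusted p = 0.7281) in WT.

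Tank (chromosome 2, 61578586 to 61654169, plus strand) was not called in either genotype. It was at 314, 347 and 299 RPKM in B-KO GC, against 377, 348 and 341 RPKM in B-KO naive libraries. WT GC libraries had 272, 310 and 320 RPKM, against 363, 315 and 335 RPKM in WT naive libraries. The ranges overlapped, with a log2 fold change of -0.15 (-0.34 to 0.03, limma adjusted p = 0.1435) in B-KO and -0.17 (-0.35 to 0.02, adjusted p = 0.1073) in WT. Quantile normalization called it lower in B-KO (-0.32, adjusted p = 0.00934) and in WT (-0.30, adjusted p = 0.01065). In WT it was also called with array weights (-0.25, adjusted p = 0.008255) and without both B-KO GC replicate 2 and WT GC replicate 3 (-0.21, adjusted p = 0.0463).

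Traf6 (chromosome 2, 101678440 to 101700974, plus strand), a ubiquitin ligase gene that also serves Toll-like and interleukin-1 receptors, was the member with the steadiest level in naive B cells. It was at 112, 122 and 105 RPKM in B-KO GC, against 112, 112 and 112 RPKM in B-KO naive libraries. WT GC libraries had 103, 82.4 and 95.2 RPKM, against 112, 110 and 112 RPKM in WT naive libraries. Over the 6 naive libraries the SD was 0.794 RPKM, below the counting error of a single library (2.41 to 2.99 RPKM). In WT all GC libraries lay below all naive libraries, and in B-KO they lay on both sides of the naive level. The log2 fold change of GC over naive was 0.01 (-0.18 to 0.20, limma adjusted p = 0.9372) in B-KO and -0.25 (-0.44 to -0.06, adjusted p = 0.02548) in WT. The WT call was lost without WT GC replicate 2 (-0.16, adjusted p = 0.1064) and without WT naive replicate 1, 2 or 3 (adjusted p = 0.06455, 0.05089 and 0.05869), and in a fit of only the 2 groups compared (0.05969). The difference between the genotypes in this change was 0.26 (-0.01 to 0.53, adjusted p = 0.9999), and 0.17 without WT GC replicate 2.

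Within the 5 TRAF genes among the members the proportions shifted (the plot of TRAF shares). Traf4 and Traf7 are not members and are not in the sum. Of the summed RPKM of the 5 genes, Traf1 made up 30.8% to 31.1% in B-KO GC, against 11.5% to 23.3% in B-KO naive libraries. It made up 30.3% to 31.8% in WT GC, against 10.5% to 14.6% in WT naive libraries. The share of Traf3 was 9.88% to 13.1% in B-KO GC, against 16.2% to 20.8% in B-KO naive libraries, and 11.9% to 13.7% in WT GC, against 20.1% to 21.3% in WT naive libraries. Traf1 stood at 1.92 to 2.16 times Traf2 in B-KO GC, against 0.565 to 1.31 times in B-KO naive libraries, and at 1.90 to 2.01 times in WT GC, against 0.519 to 0.796 times in WT naive libraries. The summed TRAF level itself overlapped, at 1108 to 1282 RPKM in B-KO GC, against 988 to 1148 RPKM in B-KO naive libraries. It was 1031 to 1141 RPKM in WT GC, against 932 to 1051 RPKM in WT naive libraries. Cd40 RPKM divided by this sum was 0.304 to 0.351 in B-KO GC, against 0.430 to 0.585 in B-KO naive libraries, and 0.301 to 0.327 in WT GC, against 0.476 to 0.609 in WT naive libraries. These shares and ratios are descriptions and were not tested.

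**Figure D4:**
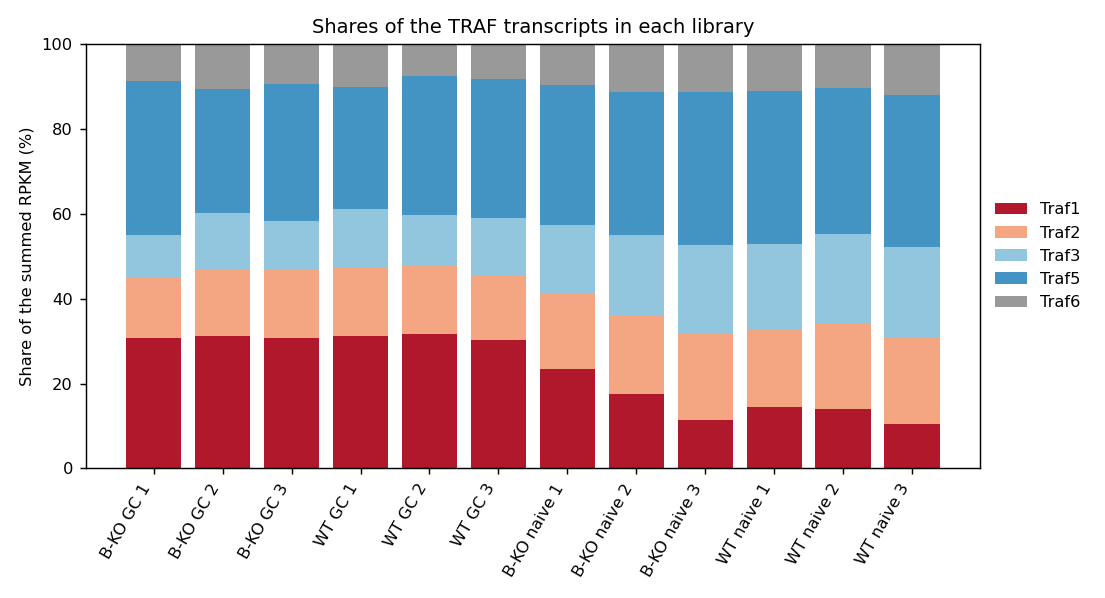
Share of each TRAF gene in the summed RPKM of the 5 TRAF genes among the members (y axis, percent) in each of the 12 libraries. GC libraries are on the left and naive libraries on the right, and Traf4 and Traf7 are not included. The Traf1 share is 30.3% to 31.8% in all 6 GC libraries and 10.5% to 23.3% in the 6 naive libraries.

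By level per length and mean over both genotypes, Birc3 was the highest of the 10 genes in both cell types and Traf6 the lowest. In GC B cells Birc3 did not lead in every library. Traf5 (467 RPKM) was above Birc3 (398) in B-KO GC replicate 1, and Cd40 (337) was above Birc3 (322) in WT GC replicate 1. In the 6 GC libraries Birc3 (414 ± 87.7 RPKM, SD) was followed by Traf5 (365 ± 56.2), Cd40 (364 ± 30.0), Traf1 (351 ± 24.5), Tank (310 ± 24.6) and Birc2 (303 ± 18.8), and the ranges of neighbors in this order overlapped. Traf2 (177 ± 5.51 RPKM) lay apart from Birc2 above it and Traf3 below it. Traf3 (138 ± 12.7), Map3k14 (109 ± 15.0) and Traf6 (103 ± 13.7) overlapped with their neighbors. In the 6 naive libraries Birc3 (812 ± 41.8 RPKM) and Cd40 (537 ± 39.9) lay apart from each other and from the rest. Traf5 (355 ± 18.0), Tank (346 ± 21.7) and Birc2 (303 ± 20.5) overlapped in that order, as did Traf3 (200 ± 13.2), Traf2 (196 ± 10.9), Traf1 (158 ± 60.2) and Map3k14 (143 ± 12.5). Traf6 (112 ± 0.794) was the lowest by mean and lay apart from Map3k14, but Traf1 in WT naive replicate 3 (98.1) was below it. Traf1 held rank 4 by mean in GC B cells and rank 8 in naive B cells.

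No member was called between B-KO and WT B cells, in GC B cells, in naive B cells, over both cell types or in the difference between cell types (the plot of log2 fold changes of B-KO over WT). Of all genes tested, limma called 0.00730% in GC B cells, 0.0146% in naive B cells, 0.0219% over both and 0.0219% in the difference. limma voom on the recovered reads also called 0 members in each. At an unadjusted p under 0.05 there was 1 member in GC B cells and 1 over both, Traf6 each time, and there were 0 in naive B cells and 0 in the difference. Of all genes, 5.66% were under that p in GC B cells, 6.00% over both, 4.55% in naive B cells and 3.37% in the difference. In GC B cells 7 of the 10 members were above 0 on the log2 scale, with a median of 0.10, and so were 58.65% of all genes, with a median of 0.03. In naive B cells 8 were above 0, with a median of 0.01, against 56.57% and a median of 0.02 for all genes. For 2 members, Traf6 and Traf2, all B-KO GC libraries lay above all WT GC libraries, and 9.29% of all genes were free of overlap in either direction. They overlapped for all 10 members in naive B cells (9.38%).

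**Figure D5:**
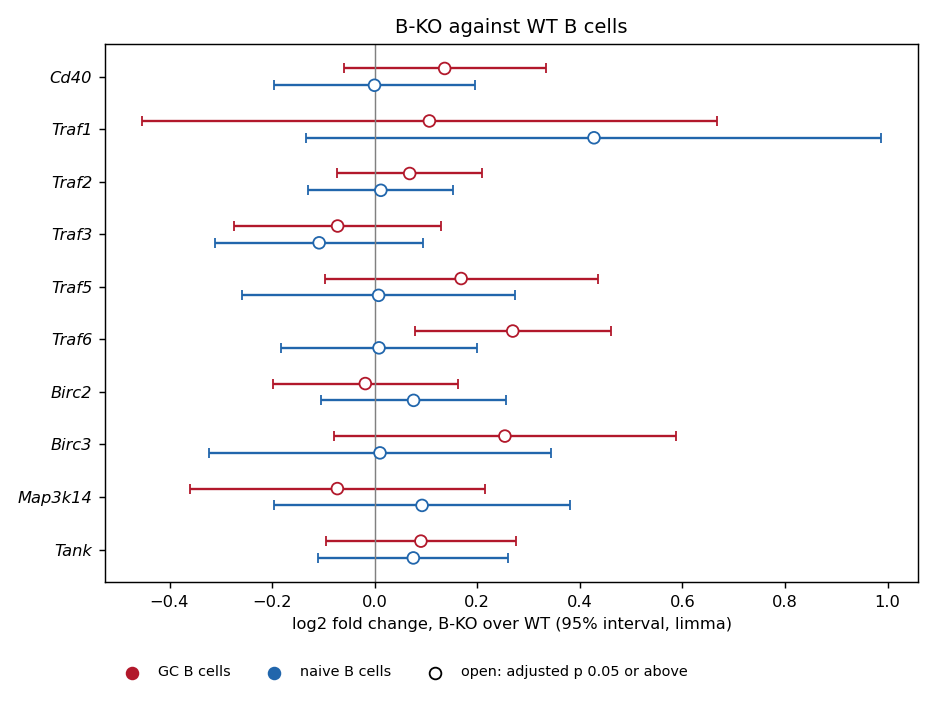
Log2 fold change of B-KO over WT (x axis) for the 10 genes, in GC (red) and naive (blue) B cells, with 95% intervals from limma. All points are open, meaning an adjusted p of 0.05 or above. The interval of Traf6 in GC B cells, 0.08 to 0.46, lies above 0, and all other intervals in the plot include 0. Each interval rests on a spread shared by GC and naive libraries.

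Traf6, the member with 4 8mers for miR-146a, was at 113 ± 8.90 RPKM in B-KO GC and 93.7 ± 10.6 RPKM in WT GC libraries (SD, n = 3 each). The lowest B-KO GC library (105) was just above the highest WT GC library (103). B-KO over WT, the log2 fold change was 0.27 (95% interval 0.08 to 0.46), with an unadjusted p of 0.01003 and a limma adjusted p of 0.6923. The interval and both p rest on a spread shared by all 4 groups. For Traf6 the naive libraries varied far less than the GC libraries. The log2 fold change was 0.18 without WT GC replicate 2 and 0.34 without WT GC replicate 1. Traf6 ranked 198 of 13704 genes by p. In naive B cells it was at 112 ± 0.354 RPKM in B-KO and 111 ± 1.06 RPKM in WT (SD, n = 3 each), a log2 fold change of 0.01 (-0.18 to 0.20, limma adjusted p = 1). Among the 518 tested genes with an 8mer in the 3′ UTR, 290 were higher in B-KO GC than in WT GC libraries by fitted mean, and their median log2 fold change was 0.02. Of all 11791 genes with an annotated 3′ UTR 6975 were, with a median of 0.03. In naive B cells 274 of the 518 genes were higher in B-KO, with a median of 0.01. Of the 11791 genes 6764 were higher there, with a median of 0.02.

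Cd40 was at 381 ± 28.4 RPKM in B-KO GC and 346 ± 23.3 RPKM in WT GC libraries (SD, n = 3 each), and the libraries overlapped. The log2 fold change was 0.14 (-0.06 to 0.33, limma adjusted p = 0.9065). In naive B cells it was at 537 ± 42.2 RPKM in B-KO and 537 ± 46.9 RPKM in WT, a log2 fold change of 0.00 (-0.20 to 0.20, limma adjusted p = 1). The difference between the cell types in the genotype effect was 0.14 (-0.14 to 0.42, adjusted p = 0.9999), and 0.03 without B-KO naive replicates 1 and 2.

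Traf1 had the largest log2 fold change of the 10 members in naive B cells and also the widest interval. Its level was 185 ± 78.1 RPKM in B-KO naive and 131 ± 28.7 RPKM in WT naive libraries (SD, n = 3 each), a log2 fold change of 0.43 (-0.13 to 0.99, limma adjusted p = 1). Without B-KO naive replicate 1 it was 0.12, without replicates 1 and 2 it was -0.19, and without B-KO naive replicate 3 it was 0.73. Without WT naive replicate 3 it was 0.23. In GC B cells Traf1 was at 365 ± 27.4 RPKM in B-KO and 338 ± 14.8 RPKM in WT, a log2 fold change of 0.11 (-0.45 to 0.67), and of 0.05 without B-KO GC replicate 1 and 0.07 without WT GC replicate 1.

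The remaining members were not called between genotypes either. Birc3 was at 452 ± 103 RPKM in B-KO GC and 376 ± 66.1 RPKM in WT GC libraries (SD, n = 3 each), a log2 fold change of 0.25 (-0.08 to 0.59, limma adjusted p = 0.8958). It was 0.07 without B-KO GC replicate 2, 0.15 without WT GC replicate 1 and 0.39 without WT GC replicate 3. Traf5 differed by 0.17 in GC B cells (-0.10 to 0.43) and Traf2 by 0.07 (-0.07 to 0.21) on the log2 scale. The Traf5 value was 0.03 without B-KO GC replicate 1, 0.07 without WT GC replicate 1, 0.26 without B-KO GC replicate 2 and 0.33 without both B-KO GC replicate 2 and WT GC replicate 3. Traf3 was the only member with a negative value in both cell types, -0.07 (-0.27 to 0.13) in GC and -0.11 (-0.31 to 0.09) in naive B cells, the last being -0.01 without B-KO naive replicates 1 and 2. The limma adjusted p of the members was 0.6923 or above in GC B cells, and 1 for all 10 in naive B cells. Over both cell types the log2 fold changes of the members ran from -0.09 to 0.27.

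The wider pathway was followed through 52 further genes, of which 51 were tested and Nlrp12 was not. None was called between B-KO and WT by limma in any of the 4 genotype comparisons. At an unadjusted p under 0.05 there were 5 in GC B cells (5.66% of all genes), 0 in naive B cells (4.55%), 4 over both (6.00%) and 1 in the difference (3.37%). The 5 in GC B cells were Mapk9, a JNK gene (log2 fold change 0.24), the TRAF-type zinc finger gene Trafd1 (0.23), the TBK1-binding gene Tbkbp1 (0.70), the IKKα gene Chuk (0.15) and the ubiquitin ligase gene Siah2 (-0.41). Their adjusted p was 0.685 to 0.8046.

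Between GC and naive B cells, 15 of the 51 were called higher and 19 lower in B-KO mice, and 15 higher and 20 lower in WT mice. The shares of all genes called are those given above for the members. Of 10 genes for the IKK complex and the kinases and adaptors above it, 2 were higher and 5 lower in B-KO, and 2 higher and 6 lower in WT. Ikbkb, the IKKβ gene, was at 300 ± 34.3 RPKM in B-KO GC and 657 ± 1.46 RPKM in B-KO naive libraries (SD, n = 3 each). In WT it was at 293 ± 28.7 RPKM in GC and 688 ± 29.4 RPKM in naive libraries, and its log2 fold change was -1.13 in B-KO and -1.23 in WT. Map3k1, a kinase gene of the MAP kinase branch that binds TRAF proteins, changed by -1.82 in B-KO and -2.31 in WT. The 2 higher genes were Tab1 (0.39 in B-KO and 0.38 in WT) and Tab2 (0.15 in B-KO and 0.13 in WT), which encode adaptors of the TAK1 kinase.

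Of 8 genes for NFκB subunits and IκB proteins, 0 were higher and 4 lower in B-KO, and 0 higher and 3 lower in WT. Nfkb2, whose product NIK signaling processes, was at 420 ± 73.6 RPKM in B-KO GC and 657 ± 89.7 RPKM in B-KO naive libraries (SD, n = 3 each). In WT it was at 391 ± 61.1 RPKM in GC and 634 ± 75.8 RPKM in naive libraries, with a log2 fold change of -0.65 in B-KO and -0.70 in WT. Its partner gene Relb changed by -0.62 in B-KO and -0.54 in WT, and Nfkb1 by -0.54 in B-KO and -0.47 in WT. Rel, the c-Rel gene, was not called (0.06 in B-KO and 0.07 in WT). Its GC libraries ranged from 282 to 663 RPKM in B-KO and from 305 to 626 RPKM in WT.

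Of 4 TBK1 complex genes besides Tank, 1 was higher and 2 lower in B-KO, and 0 higher and 2 lower in WT. Tbk1 changed by -0.36 in B-KO and -0.41 in WT, and Azi2, a TBK1 adaptor gene, by -0.77 in B-KO and -1.02 in WT. Of 8 genes for ubiquitin chain assembly and other ligases, 3 were higher and 3 lower in either genotype. Siah2, which targets TRAF2 in other cells, was at 245 ± 31.5 RPKM in B-KO GC and 65.6 ± 12.9 RPKM in B-KO naive libraries (SD, n = 3 each). In WT it was at 326 ± 52.1 RPKM in GC and 52.4 ± 4.53 RPKM in naive libraries, a log2 fold change of 1.89 in B-KO and 2.61 in WT. Ube2n, which encodes the conjugating enzyme Ubc13 that works with TRAF6, changed by 0.87 in B-KO and 0.89 in WT. Among the genes of the linear ubiquitin ligase, Rnf31 changed by -0.51 in both, Sharpin by -0.51 in B-KO and -0.61 in WT, and Rbck1 was not called (-0.01 in B-KO and 0.05 in WT).

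Of 8 tested genes for deubiquitinases and other brakes, 3 were higher and 1 lower in B-KO, and 4 higher and 1 lower in WT. Otub2, a deubiquitinase gene, changed by 2.14 in B-KO and 2.74 in WT. Otud7b, whose product (Cezanne) removes ubiquitin from TRAF3, changed by -1.29 in B-KO and -1.34 in WT. Tnfaip3 (A20) was not called, and its GC libraries ranged from 118 to 410 RPKM in B-KO and from 119 to 421 RPKM in WT. Of 8 genes of the MAP kinase branch, 2 were higher and 4 lower in B-KO, and 2 higher and 5 lower in WT. Map2k3, an upstream kinase gene of p38, changed by 0.73 in B-KO and 0.84 in WT, and Map2k7, one of JNK, by -0.32 in B-KO and -0.33 in WT.

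Of the ligand gene and Traf4, Traf7, Trafd1 and Traip, 4 were higher and 0 lower in either genotype. Traf7 was at 417 ± 7.57 RPKM in B-KO GC and 364 ± 9.39 RPKM in B-KO naive libraries (SD, n = 3 each). In WT it was at 418 ± 20.5 RPKM in GC and 364 ± 20.8 RPKM in naive libraries, a log2 fold change of 0.20 in both genotypes. Traip, which encodes a TRAF-interacting ligase of the replication machinery, changed by 2.10 in B-KO and 2.12 in WT. Cd40lg, the ligand gene, is typical of activated T cells and was at a low level. It was at 1.84 ± 0.639 RPKM in B-KO GC and 0.617 ± 0.289 RPKM in B-KO naive libraries (SD, n = 3 each). In WT it was at 3.21 ± 0.552 RPKM in GC and 0.480 ± 0.463 RPKM in naive libraries, and it was called higher in both. The summed RPKM of 6 T cell markers was 358 to 718 in B-KO GC, against 207 to 265 in B-KO naive libraries. It was 545 to 682 in WT GC, against 158 to 232 in WT naive libraries. Lck, which some B cells also express, made up most of that sum. The other 5 were low and did not move together. Cd3e was at 0.812 to 2.87 RPKM in GC and 0 to 1.29 RPKM in naive libraries, Cd3d at 1.35 to 4.17 in GC and 0.988 to 4.35 in naive libraries, and Cd3g at 2.19 to 14.2 in GC and 0.630 to 24.1 in naive libraries. Cd4 was lower in GC (2.02 to 4.28 RPKM) than in naive libraries (10.96 to 28.3), and Cd8a was at 0.856 to 3.43 in GC and 3.21 to 7.67 in naive libraries. The part of T cell RNA in the Cd40lg values was not tested.

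Other genes followed a member closely over the 12 libraries, by Pearson's r on log2(RPKM + 1), which is dominated by the split of GC and naive libraries. For Cd40 the 4 closest of all genes tested were Fbxl6 (r = 0.99), Rnf166 (0.99), Il12a (0.99) and Eef2k (0.99). For Traf1 they were the focal adhesion kinase gene Ptk2 (0.98), Wdr7 (0.98), Slc4a8 (0.98) and C130026I21Rik (0.98). Ptk2 was at 68.3, 52.1 and 62.6 RPKM in B-KO GC, against 31.7, 19.6 and 13.9 RPKM in B-KO naive libraries. In WT it was at 63.9, 61.9 and 56.2 RPKM in GC, against 16.9, 16.2 and 10.1 RPKM in naive libraries. Like Traf1 it was highest in replicate 1 and lowest in replicate 3 of the B-KO naive libraries. For Traf6 they were Nit1 (0.88), Cd302 (0.86), Setdb2 (0.84) and Snord12 (0.84), with no gene as close as for Cd40 or Traf1. The libraries share depth and cell state, and these values are descriptions with no test.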

How the data were processed

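The authors aligned adaptor-trimmed poly-A reads to mm10 with STAR (2.2.0c in the submitters' processing notes, which name mm9 too; the labels name total RNA). With HOMER, version not given in the sources used here, they counted reads of both strands in the exons of 33072 RefSeq transcripts and deposited RPKM scaled to 10000000 per library. Dividing by the value of 1 read gave whole reads within 0.1 for 100% of the deposited RPKM values that could be checked. Because a read is counted for every transcript it overlaps, 37.6% of counts lie on further transcripts of a gene, and overlapping genes on opposite strands cannot be separated.

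Per symbol the transcript with the highest mean was kept. limma 3.58.1 (R 4.3.3) modelled log2(RPKM + 1) by 4 group means with a mean-variance trend and 8 residual degrees of freedom over the 13704 genes that reached 1 RPKM in 3 or more libraries. The spread of a gene was shared by all 4 groups, so an interval for GC libraries also rests on naive libraries. Fold changes on this scale understate those of low genes. The 10359 other genes were not tested. The pipeline was tested on simulated data. Replicates are described as biological, without naming the animals, and no 2 libraries were identical. Of the alternatives, 2 were added after the data were seen. Members and gene lists were chosen with earlier results of these data known. Named besides the members are pathway genes past the threshold or, failing that, those of smallest p, and the 4 genes of highest correlation with Cd40, Traf1 and Traf6. Rel, Tnfaip3 and Rbck1 are exceptions to the rule, picked with their values in view. 0 sample columns were left unused.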

Additional observations from a re-analysis of the deposited data

How the results depend on the processing

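Cd40, Traf1, Traf3 and Birc3 kept direction and call between GC and naive B cells under all 25 alternatives in both genotypes, and no member was called between B-KO and WT under any of them by adjusted p. Quantile normalization raised the members called between B-KO GC and naive B cells to 8. Of all 13704 genes tested, it called 3620 higher and 4214 lower there, against 4116 and 3768 in the main fit. With the replicate block 5 members were called in B-KO and 5 in WT between GC and naive B cells. Of all genes, 3944 were then called higher and 3590 lower in B-KO, and 4164 higher and 3958 lower in WT. The block called 0 members in each genotype comparison, and Traf2 in WT was the GC against naive call lost. Same-numbered libraries did not deviate together (r between B-KO and WT 0.017, -0.373 and -0.565 in GC and 0.000, 0.022 and 0.062 in naive B cells), so the numbers were not taken as pairs, and not every library correlated best with its own number. The cause of these shifts was not tested.

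The values that changed sign all had adjusted p of 0.3289 or above there, and are log2 fold changes. Median-of-ratios rescaling gave, between genotypes in naive B cells, Traf2 -0.0061, Traf5 -0.0106, Traf6 -0.0096 and Birc3 -0.0079, over both cell types Map3k14 -0.0139, and for GC against naive in B-KO Traf6 -0.0016. Quantile normalization gave for naive B cells Traf5 -0.0043 and Traf6 -0.0076, over both Map3k14 -0.0097, in the difference Tank -0.0131, for GC against naive in B-KO Traf5 -0.0627 and Traf6 -0.0530, and in WT Birc2 -0.0926. Array weights gave Map3k14 0.0390 in GC B cells, Cd40 0.0380, Traf2 -0.0313, Traf5 -0.0670 and Birc3 -0.0217 in naive B cells, Map3k14 0.0036 in the difference and Traf6 -0.0114 for GC against naive in B-KO, where limma voom gave Traf6 -0.0191. The mean of all transcripts gave Cd40 0.0016 in naive B cells. The alternatives added after the data were seen left out 2 libraries each. Without B-KO GC replicate 2 and WT GC replicate 3, Map3k14 was 0.0826 between genotypes in GC B cells and Traf6 -0.0500 for GC against naive in B-KO. Without B-KO naive replicates 1 and 2, Cd40 was 0.1107 and Traf1 -0.1861 in naive B cells, Traf1 -0.0397 over both, and Traf1 0.2927 and Traf3 -0.0625 in the difference.

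Leaving out single libraries moved B-KO against WT in GC B cells over -0.0836 to 0.0375 for Birc2, -0.1751 to 0.0540 for Map3k14 and -0.1548 to 0.0001 for Traf3. In naive B cells the ranges were -0.0404 to 0.0509 for Birc3, -0.0748 to 0.0576 for Cd40, -0.0229 to 0.0688 for Traf2 and -0.0367 to 0.0557 for Traf5. Over both they were -0.0056 to 0.0639 for Birc2 and -0.0414 to 0.0731 for Map3k14, and in the difference -0.0557 to 0.0636 for Tank, -0.0006 to 0.0912 for Traf2 and -0.0465 to 0.1083 for Traf3. For GC against naive they were -0.1148 to 0.0062 for Birc2, -0.0328 to 0.2035 for Traf5 and -0.0500 to 0.0615 for Traf6 in B-KO, and -0.0242 to 0.1149 for Birc2 and -0.1143 to 0.0439 for Traf5 in WT. With 3 libraries per group, counting error was small beside the intervals printed in the report. These 95% intervals are not adjusted for the number of genes tested, so a call needed more than an interval free of 0. Traf6 between genotypes in GC B cells (0.08 to 0.46) was not called, for example.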
